A study of Mus musculus with 60 samples.

Results

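The genes described here were 40 interferon-stimulated genes of the mouse, taken by symbol from the 24982 genes listed in each of 2 deposited expression tables, and all 40 were found in both tables. They were measured by RNA-seq in C3H10T1/2 cells, a mouse mesenchymal line that can be turned into fat cells in culture. The first table held 24 libraries of WT and Tet1-KO cells, and the second held 36 libraries of cells labelled 23-NC, 23-Tet1 and 23-CATA. Each population was sampled at days 0, 2, 4 and 6 with 3 libraries a day, which gave 60 libraries in 20 groups.

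All groups shared the same adipogenic protocol. At day 0 confluent cells were put for 48 h into medium with the glucocorticoid dexamethasone (1 μM), the phosphodiesterase inhibitor IBMX (0.5 mM), insulin (10 μg/ml), the PPARγ agonist rosiglitazone (1 μM), the thyroid hormone T3 (1 nM) and 10% FBS. From day 2 the medium held insulin at 5 μg/ml. Tet1 encodes an enzyme that oxidises methylated cytosine in DNA, and Tet1-KO is the labelled genotype of the knockout. The labels do not explain 23-NC, 23-Tet1 or 23-CATA, so these names are used as given. They also do not say whether a population is 1 clone, so a difference between populations and a difference between clones cannot be told apart. Nothing in them says that the 3 libraries of a group came from separate cultures, and p-values then measure the spread between these samples, which may be technical.

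Interferons are secreted proteins that cells make when they sense viral or misplaced nucleic acid. Type I interferon binds the receptor chains IFNAR1 and IFNAR2, and the kinases JAK1 and TYK2 then activate STAT2, which with IRF9 is part of the complex ISGF3. ISGF3 enters the nucleus, binds a DNA element called the interferon-stimulated response element (ISRE) and switches on a large set of antiviral genes, and glucocorticoids such as dexamethasone are widely used to dampen inflammatory and interferon responses.

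The ISRE is the element through which ISGF3 is known to act, and the promoters of 5 members that hold its core and of 1 that does not (Ifi35) are shown so that the element can be seen. They were picked for the core and say nothing of how core and expression go together. The sequences are RefSeq windows on GRCm38.p6, 160 bases ending at the base before the start site, written 5′ to 3′ on the strand of the gene. Capitals mark the ISRE core, which was searched on both strands as GAAA, any 2 bases and GAAA (TTTC, any 2 bases and TTTC on the other strand), with overlapping matches merged.
Isg15, chr4:156200819-156200978, minus strand: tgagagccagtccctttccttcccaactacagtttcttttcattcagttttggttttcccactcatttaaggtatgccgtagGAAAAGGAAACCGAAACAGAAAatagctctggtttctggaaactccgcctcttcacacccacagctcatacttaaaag
Ifit1, chr19:34640729-34640888, plus strand: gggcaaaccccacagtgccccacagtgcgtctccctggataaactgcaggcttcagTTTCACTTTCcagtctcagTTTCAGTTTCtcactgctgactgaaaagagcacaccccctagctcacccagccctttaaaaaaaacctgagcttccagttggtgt
Ifit3, chr19:34583369-34583528, plus strand: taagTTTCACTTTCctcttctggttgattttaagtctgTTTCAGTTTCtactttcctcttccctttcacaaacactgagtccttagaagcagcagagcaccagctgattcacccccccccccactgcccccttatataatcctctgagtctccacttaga
Bst2, chr8:71537473-71537632, minus strand: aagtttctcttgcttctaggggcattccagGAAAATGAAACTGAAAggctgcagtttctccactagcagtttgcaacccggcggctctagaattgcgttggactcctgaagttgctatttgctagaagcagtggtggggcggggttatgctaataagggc
Gbp2, chr3:142620503-142620662, plus strand: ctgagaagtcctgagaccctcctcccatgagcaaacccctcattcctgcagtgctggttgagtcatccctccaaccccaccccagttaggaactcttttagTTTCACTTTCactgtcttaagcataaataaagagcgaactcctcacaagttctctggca
Ifi35, chr11:101448252-101448411, plus strand: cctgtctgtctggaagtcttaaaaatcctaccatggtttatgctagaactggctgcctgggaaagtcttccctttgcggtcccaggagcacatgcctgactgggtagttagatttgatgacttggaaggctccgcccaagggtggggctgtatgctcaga

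RefSeq windows were found for 30 of the 40 members, and within the 250 bases before the start site 12 of those 30 genes (40%) held the ISRE core on either strand. Across all 27025 genes with a window the share was 3.46%. The 12 genes were Isg15, Ifit1, Ifit3, Bst2, Gbp2, Gbp3, Gbp7, Oas1a, Oas3, Rsad2, Trim30a and Stat2. The other 18 members with a window held none, among them Ifit2, Ifitm3, Irf9, Ifi44, Xaf1, Ddx58 and Irf7. The search took only a spacing of exactly 2 bases. In the windows of Ifi44 and Ddx58 the repeats stood closer together than it allowed. A window without a match is therefore not shown to lack an ISRE. Isg15 held 3 overlapping cores that began 78, 72 and 66 bases before the start site, and Bst2 held 2 that began 130 and 124 bases before it. These are matches of letters and not measured binding. For 25 of the 37 windows of members, the bases just after the start site also occurred in the first part of a GENCODE transcript of that gene. That does not make the 2 start sites the same.

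Expression values were FPKM, fragments per kilobase of transcript, scaled to library size, and they were tested as log2(FPKM + 1) with limma. A gene was tested where it reached 1 FPKM in at least 3 libraries of its table. By this filter 26 of the 40 members were tested in the first table and 36 in the second. A gene was called where its Benjamini-Hochberg adjusted p was under 0.05 and its change kept its sign after the median change of all genes tested was subtracted. Changes are given relative to that median, on the log2(FPKM + 1) scale, which understates the change of low genes. The p-values test the change as fitted, before that median is subtracted.

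Tet1 was at 0.88, 1.12 and 1.03 FPKM in WT at day 0 and at 0.24 to 0.26 FPKM in Tet1-KO, and from day 2 on it did not exceed 0.11 FPKM in WT, so it checks that label at day 0 only. It was at 4.04 to 7.46 FPKM in 23-Tet1 and at 5.75 to 21.56 FPKM in 23-CATA over all days, against 0.12 FPKM at most in 23-NC. The pan-leukocyte gene Ptprc did not exceed 0.05 FPKM in any library. Other leukocyte and macrophage markers were higher, with Cd68 at up to 45.98 FPKM in WT and 132.32 FPKM in 23-NC. Lyz2 reached 43.83 FPKM in Tet1-KO. At day 0 the 15 such markers listed summed to 13.81 to 15.10 FPKM in WT and to 45.45 to 54.57 FPKM in Tet1-KO. The fat cell gene Fabp4 reached 25315 FPKM or more in at least 1 library of each population. The library labelled Tet1-KO day 6 replicate 2 stood apart, with Rpl41 at 64292 FPKM, Gapdh at 84.5 FPKM and 11805 genes above 0, where the other libraries had 13837 to 15063. Counts and named values of Tet1-KO at day 6 are given with and without it.

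In WT cells the interferon-stimulated genes were low at days 2 and 4 and were again near their starting level at day 6. The median of the members' mean log2 levels was 2.94 at day 0, 1.12 at day 2, 1.33 at day 4 and 2.55 at day 6. Between days 0 and 2, 16 of the 26 members tested fell and 1 rose, where 42.7% of all genes tested fell, 18.9% rose and 61.6% were called in either direction. The median change of the members was -1.15 relative to all genes, whose own median moved by -0.39. In the same libraries all 9 mesenchymal markers tested fell and all 8 adipocyte markers rose, and their part in the fall was not tested. In bulk RNA, fewer cells that express a gene and less RNA per cell cannot be told apart.

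The 3 IFIT genes tested, whose proteins bind foreign RNA and block its translation, had the largest fitted changes among the 26 members in WT. Ifit1 was at 6.60, 6.20 and 6.11 FPKM at day 0 and at 0.00, 0.06 and 0.10 FPKM at day 2. Ifit3 was at 17.16, 16.83 and 17.51 FPKM at day 0, at 0.51, 0.19 and 0.32 FPKM at day 2 and at 15.61, 13.56 and 23.35 FPKM at day 6. Days 0 and 2 were far apart and days 0 and 6 overlapped. The fall of Ifit3 by day 2 was -3.38 ± 0.66 (SE, adjusted p = 7.0e-05, limma, n = 3 a day), that of Ifit2 was -2.70 ± 0.29 and that of Ifit1 was -2.40 ± 0.50. Of the 50-base words of Ifit3, 51.2% also occur in Ifit3b, so reads of these copies cannot be told apart by sequence alone.

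**Figure D1:**
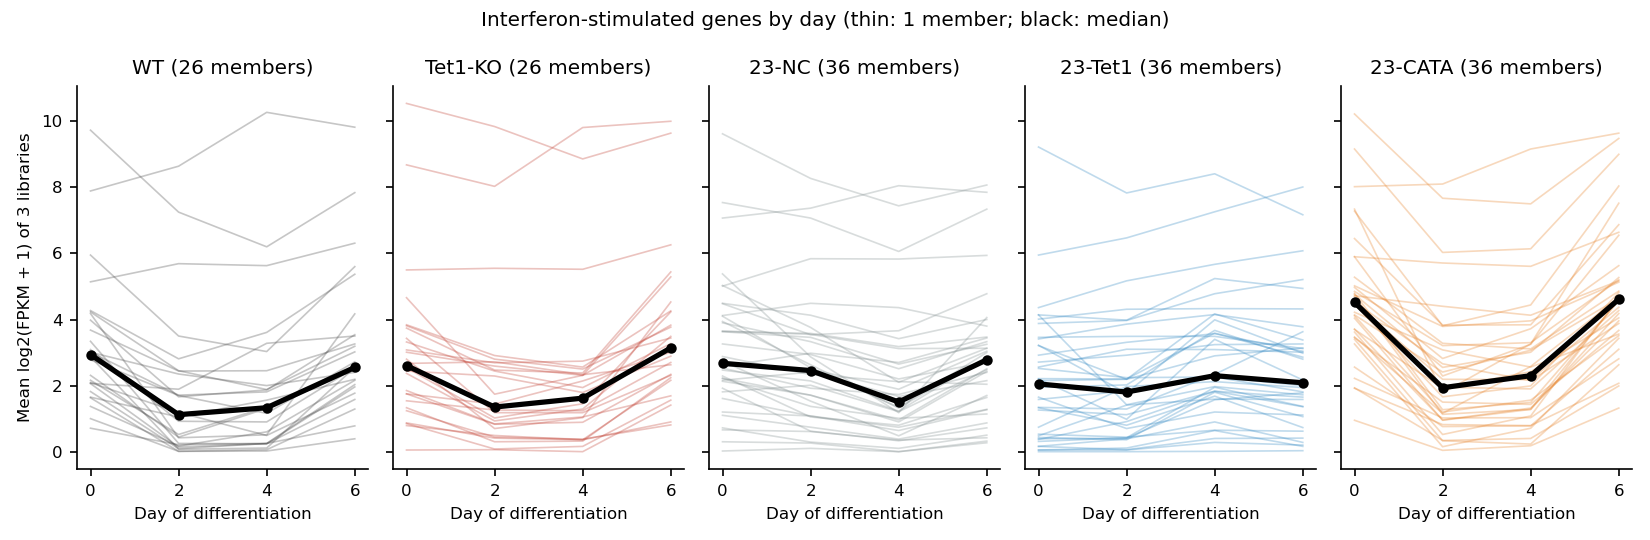
Mean log2(FPKM + 1) of 3 libraries (vertical axis) by day of differentiation (horizontal axis) for the 26 members tested in WT and Tet1-KO and the 36 tested in 23-NC, 23-Tet1 and 23-CATA. Each thin line is 1 member and the black line is the median, which in WT runs from 2.94 at day 0 to 1.12 at day 2 and 2.55 at day 6 and in 23-CATA from 4.52 to 1.94 and 4.61.

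The factors that carry the interferon signal mostly fell as well in WT. Irf9, the DNA-binding part of ISGF3, was at 16.62, 18.28 and 18.65 FPKM at day 0 and at 4.28, 4.26 and 4.86 FPKM at day 2, a change of -1.39 ± 0.20 (adjusted p = 4.8e-07, limma, n = 3). Stat2, its partner, fell by 0.90 on the log2 scale (adjusted p = 0.00274) and Irf1 fell by 1.07. Irf7, the factor that amplifies type I interferon production, was at 3.00, 3.40 and 3.18 FPKM at day 0 and 2.28, 3.31 and 2.62 FPKM at day 2. Those ranges overlapped and Irf7 was not called at day 2 (adjusted p = 0.804), but it rose by day 6, to 9.38, 11.06 and 10.66 FPKM (1.72 ± 0.57, adjusted p = 0.0365).

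A few members took another course. Ifi27, a small mitochondrial protein gene, was at 265, 224 and 223 FPKM in WT at day 0 and at 400, 469 and 336 FPKM at day 2, and it was the 1 member that rose there (1.14 ± 0.23, adjusted p = 0.00887, limma, n = 3). By day 6 it was at 795 to 1043 FPKM. Between days 0 and 6 in WT, 5 members rose, Ifi27, Ifi35, Irf7, Irf1 and Dtx3l, and 4 fell, Ifitm3, Ifit2, Irf9 and Ifi44. Of all genes tested 56.6% were called there, 19.2% higher and 37.4% lower, against 9 of 26 members. These genes' own median moved by -0.29.

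The fall by day 2 was seen in Tet1-KO as well. There 10 of 26 members tested fell and none rose (22.5% of all genes tested were called, 7.72% higher and 14.8% lower), and the members with the largest falls were again Ifit3 at -2.82 ± 0.66, Ifit2 at -2.14 ± 0.29 and Ifit1 at -2.01 ± 0.50. Without Tet1-KO day 2 replicate 2 the count was 6.

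In 23-NC, 30 of the 36 members tested had their lowest mean at day 4. The share of all genes lowest at that day was not counted. By day 2, 22 had fallen and 4 had risen (59.5% of all genes tested were called, 24.4% higher and 35.1% lower), with a median change of -0.33. Ifit3 was at 45.63, 37.82 and 38.73 FPKM at day 0, at 6.23, 6.76 and 6.03 FPKM at day 2, at 1.03, 1.03 and 1.80 FPKM at day 4 and at 14.83, 17.42 and 15.02 FPKM at day 6. The 4 days did not overlap. Ifi35 and Irf7 went the other way, at 0.90 ± 0.10 and 0.47 ± 0.10.

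In 23-CATA the members fell by day 2 and were back at day 6. By day 2, 33 of the 36 members tested had fallen and none had risen, with a median change of -2.10. Of all genes tested 72.0% were called, 27.0% higher and 45.0% lower. Of the 32 members that passed the filter without 23-CATA libraries, 29 had fallen. Ifit3 fell by 5.40 on the log2 scale (SE 0.12, adjusted p = 2.8e-26, limma, n = 3), from 161, 157 and 163 FPKM to 2.20, 2.54 and 2.57 FPKM. At day 6 it was at 177, 184 and 187 FPKM, above every day 0 library, and 25 of the 36 members had their highest mean at that day. The share of all genes highest at that day was not counted. From day 0 to day 6, 19 members rose and 7 fell (75.1% of all genes tested were called, 27.3% higher and 47.8% lower). Of the 32 that passed without 23-CATA libraries, 18 rose and 6 fell.

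In 23-Tet1 the members moved both ways. By day 2, 10 of 36 members tested had risen and 8 had fallen, with a median change of 0.06. Of all genes tested 64.4% were called, 28.8% higher and 35.6% lower. The share of members that rose by day 2 was near that of all genes. The highest day was day 4 for 22 of the 36 members, and the same count was not made over all genes. Isg15 was at 9.28, 7.43 and 8.07 FPKM at day 0, at 3.45, 3.68 and 3.59 FPKM at day 2, at 19.56, 13.80 and 18.03 FPKM at day 4 and at 9.24, 9.17 and 9.87 FPKM at day 6. Day 4 lay above the other days in every library, and the day 0 and day 6 libraries overlapped. From day 0 to day 6, 19 members rose and 6 fell in 23-Tet1, where 32.8% of all genes tested rose, 44.7% fell and 77.6% were called. In 23-NC 10 members rose and 20 fell, where 31.7% of all genes rose, 40.5% fell and 72.2% were called. The share of members that rose in 23-NC was near that of all genes.

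Irf7, Ifi35 and Ifi27 were higher at day 6 than at day 0 in WT, 23-NC, 23-Tet1 and 23-CATA, without overlap. Ifi35, which encodes a partner of the regulator NMI, was at 38.87, 26.95 and 29.03 FPKM in 23-NC at day 0 and at 54.00, 66.68 and 60.82 FPKM at day 6 (1.00 ± 0.10, adjusted p = 2.1e-09, limma, n = 3). Irf7 was at 1.77, 1.65 and 1.21 FPKM in 23-Tet1 at day 0 and at 11.39, 11.99 and 10.68 FPKM at day 6, a 7.36-fold higher mean (adjusted p = 1.1e-18). Ifi27 was at 58.70, 61.72 and 62.25 FPKM and at 243, 257 and 270 FPKM in the same libraries. These 3 genes held days 0 and 6 apart in each of the populations named.

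Between populations, the largest differences were those of 23-CATA at days 0 and 6. Against 23-NC at day 0, 34 of the 36 members tested were higher and none lower, where 31.6% of all genes tested were higher, 11.7% lower and 43.3% called in either direction. At day 6 the 36 members tested were each higher, where 38.0% of all genes were higher, 36.4% lower and 74.4% called. The median difference was 1.15 at day 0 and 1.75 at day 6. The 2 members not called at day 0 were Mx1 and Ifit2. Ifih1, Oas2, Oas3 and Zbp1 reached 1 FPKM in enough libraries only through 23-CATA, so that their direction was in part fixed by the filter. Of the 32 members that passed without its libraries, 30 were higher at day 0 and 32 at day 6. By mean level, 23-CATA was the highest of the 3 populations in 35 of 36 members at day 0 and in 36 at day 6, where it was the highest for 39.5% and 37.8% of all genes tested.

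**Figure D2:**
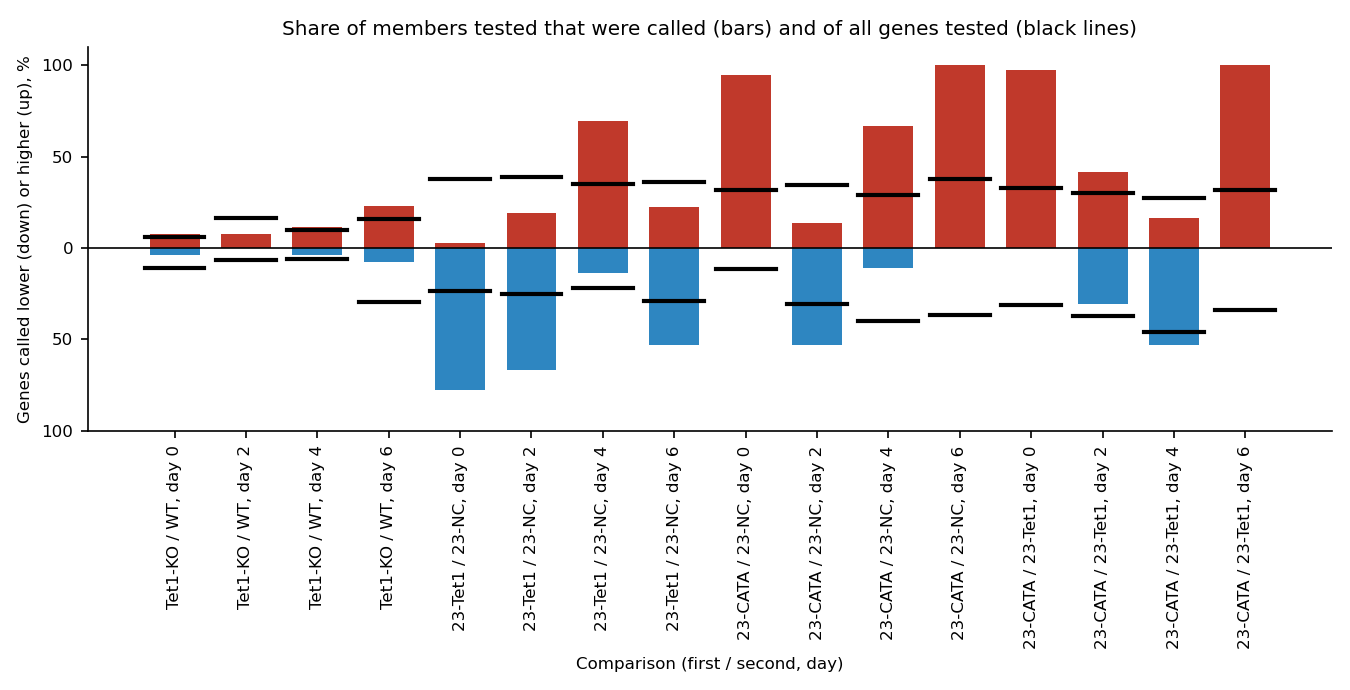
Share of members tested (bars) and of all genes tested (black lines) called higher (upward) or lower (downward), in percent, for each comparison of 2 populations at 1 day. The bars of 23-CATA against 23-NC and against 23-Tet1 reach 34 of 36 and 35 of 36 members at day 0 and 36 of 36 at day 6, and for Tet1-KO against WT at day 6 the upward bar (6 of 26) passes the line of 15.7% while the downward bar (2 of 26) does not reach that of 29.7%.

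ISG15, a small protein joined to other proteins like ubiquitin, had the largest difference among the 36 members at day 6. Its gene was at 163, 150 and 151 FPKM in 23-CATA at day 0, against 39.12, 28.38 and 28.31 FPKM in 23-NC, and at 259, 274 and 252 FPKM at day 6 against 9.23, 6.77 and 7.38 FPKM. No library of one population overlapped the other. The difference was 2.15 ± 0.15 at day 0 (adjusted p = 1.8e-13, limma, n = 3) and 4.89 ± 0.15 at day 6 (adjusted p = 3.9e-22). Usp18, which removes ISG15 and dampens the receptor, was at 30.88, 30.27 and 29.90 FPKM against 5.77, 4.63 and 4.97 FPKM at day 0, a 5.92-fold higher mean.

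The IFIT genes did not move alike. Ifit1 was at 59.10, 58.55 and 58.78 FPKM in 23-CATA at day 0 against 16.09, 14.78 and 17.77 FPKM in 23-NC, and at 91.29, 92.43 and 93.89 FPKM at day 6 against 7.28, 6.47 and 7.20 FPKM. The differences were 1.69 ± 0.08 and 3.54 ± 0.08 (adjusted p = 3.1e-17 and 5.5e-25, limma, n = 3), without overlap. Ifit2 overlapped at day 0, at 15.99, 16.11 and 16.71 FPKM against 11.89, 15.34 and 16.07 FPKM (0.17 as fitted, adjusted p = 0.174). At day 6 it was at 11.24, 9.84 and 10.13 FPKM against 6.56, 5.60 and 6.83 FPKM, a difference of 0.62 ± 0.10.

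Sensors of nucleic acid were higher too. Zbp1, a sensor of Z-form nucleic acid, was at 9.38, 7.80 and 8.68 FPKM in 23-CATA at day 0 and at 0.46, 0.24 and 0.04 FPKM in 23-NC (2.85 ± 0.15). Dhx58, which tunes the RIG-I pathway, was at 23.02, 23.10 and 22.87 FPKM against 3.74, 3.01 and 3.70 FPKM. Ifih1, which encodes the RNA sensor MDA5, was at 2.92, 2.86 and 2.57 FPKM against 0.49, 0.65 and 0.60 FPKM. The libraries of these 3 did not overlap. Zbp1 and Ifih1 passed the filter only through 23-CATA, so their direction was in part fixed by it and their values are description only. The sensors Ddx58, Dhx58 and Eif2ak2 passed the filter without 23-CATA libraries, as did the RNA-editing gene Adar. Each of these was higher at days 0 and 6.

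Oligoadenylate synthetases make a second messenger that activates an RNA-cutting enzyme. Oasl2 was at 24.83, 28.26 and 26.88 FPKM in 23-CATA at day 0 against 3.15, 3.98 and 3.09 FPKM (2.55 ± 0.09, adjusted p = 5.1e-20, limma, n = 3), and Oas2 at 9.73, 10.06 and 8.90 FPKM against 0.47, 0.83 and 0.66 FPKM. Oas1a was at 22.33, 20.05 and 20.90 FPKM against 2.91, 2.77 and 1.95 FPKM, but 57.6% of its 50-base words are shared with Oas1g. Oas2 and Oas3 passed the filter only through 23-CATA, so their direction was in part fixed by it. Oas1a and Oasl2, which passed the filter without 23-CATA libraries, were higher in 23-CATA at days 0 and 6, and at day 2 they were lower.

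Among proteins at membranes, Bst2, which tethers budding virus to the cell, was at 580, 561 and 576 FPKM in 23-CATA at day 0, against 242, 164 and 158 FPKM in 23-NC (1.52 ± 0.16, adjusted p = 8.4e-10, limma, n = 3). At day 6 it was at 485, 522 and 533 FPKM against 147, 186 and 153 FPKM. Rtp4, a chaperone of receptors, reached 113.56, 117.78 and 115.72 FPKM at day 6 against 9.51, 9.73 and 7.98 FPKM, a 12.8-fold higher mean. Neither gene's libraries overlapped between the populations.

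The 5 GTPases tested included the guanylate-binding proteins, which attack membranes around pathogens. Gbp2 was at 23.21, 24.73 and 24.83 FPKM in 23-CATA at day 6 against 2.07, 1.85 and 2.45 FPKM in 23-NC (3.00 ± 0.10, adjusted p = 2.0e-21, limma, n = 3). Gbp3 was 17.1-fold higher in mean at that day. Mx1, an antiviral GTPase, was at 2.57, 3.29 and 2.60 FPKM against 2.53, 2.82 and 3.05 FPKM at day 0. Mx2, a related GTPase, was at 11.22, 12.32 and 12.77 FPKM against 4.39, 4.56 and 4.71 FPKM. The Mx1 libraries overlapped, with a difference of 0.00 as fitted (adjusted p = 0.979).

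Members with other roles included Parp14, an ADP-ribosyltransferase, at 9.65, 10.50 and 9.59 FPKM in 23-CATA at day 0 against 2.91, 3.71 and 4.45 FPKM in 23-NC (1.12 ± 0.10, adjusted p = 2.7e-11, limma, n = 3). At day 6 its mean was 9.73-fold higher. Trim30a, a TRIM protein gene of rodents, was at 22.22, 22.09 and 21.19 FPKM against 7.92, 8.63 and 9.24 FPKM at day 0. Adar, which edits double-stranded RNA, differed least of these, at 17.36, 18.78 and 16.81 FPKM against 10.31, 12.49 and 12.08 FPKM (0.46 ± 0.08). None of these 3 overlapped.

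All 4 transcription factors were higher in 23-CATA at days 0 and 6. Irf7 was at 24.40, 26.13 and 27.70 FPKM against 5.58, 4.86 and 4.50 FPKM at day 0 (2.07 ± 0.10, adjusted p = 3.4e-17, limma, n = 3). Irf9 was at 37.42, 37.18 and 39.03 FPKM against 21.58, 20.56 and 22.39 FPKM, and Stat2 at 22.20, 22.94 and 21.10 FPKM against 10.71, 12.50 and 11.04 FPKM. The differences of Irf9 and Stat2 were 0.68 ± 0.08 and 0.79 ± 0.08, and these were not tested against that of Irf7.

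**Figure D3:**
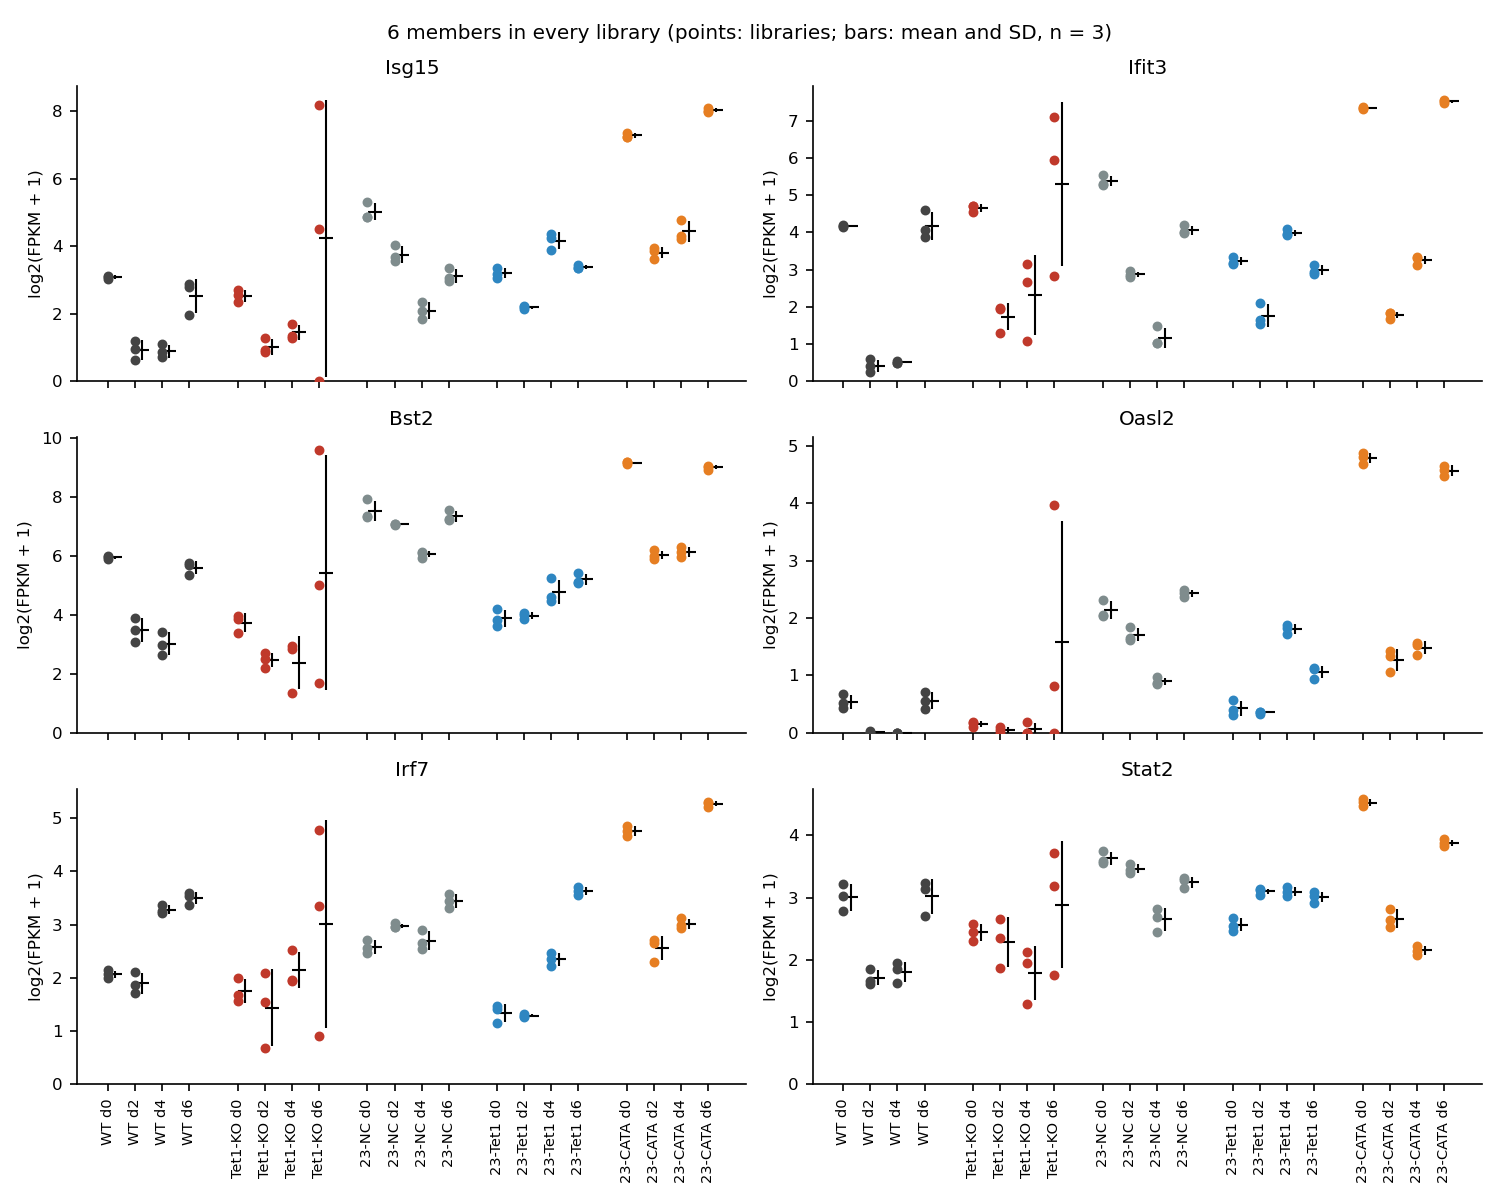
log2(FPKM + 1) of 6 members (vertical axis) in every library of the 20 groups (horizontal axis, population and day). Points are libraries and bars give the mean and SD of 3; 23-CATA stands highest at days 0 and 6 in its own table, and the 3 Tet1-KO day 6 libraries lie far apart.

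At day 2 more members were lower than higher in 23-CATA. There, 19 of 36 members were lower than in 23-NC and 5 were higher (65.0% of all genes tested were called, 34.3% higher and 30.7% lower). Ifit3 was at 2.20, 2.54 and 2.57 FPKM against 6.23, 6.76 and 6.03 FPKM (-1.12 ± 0.12, adjusted p = 2.0e-09, limma, n = 3). Isg15 overlapped there, at 11.39, 14.39 and 13.61 FPKM against 11.82, 15.36 and 10.75 FPKM. At day 4, 24 members were higher in 23-CATA and 4 lower, Adar, Ifi35, Irf9 and Stat2 (68.7% of all genes tested were called, 28.9% higher and 39.9% lower). Of the 32 members that passed the filter without 23-CATA libraries, 4 were higher and 19 lower at day 2. Of the same 32, 21 were higher and 4 lower at day 4.

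Markers of cell state moved in the same samples. All 8 adipocyte markers tested were higher in 23-CATA than in 23-NC at each of the 4 days, and the range of their summed level was 2432 to 70010 FPKM in 23-CATA and 59.7 to 27302 FPKM in 23-NC. The sum of 15 leukocyte and macrophage markers ranged from 26.7 to 91.3 FPKM in 23-CATA and from 7.85 to 133.3 FPKM in 23-NC, with Cd68 highest at 86.2 and 132.3 FPKM. Of these, Tyrobp, Ms4a1, Klrb1c and Siglech were listed at 0 in every 23-CATA library. The part of these cell states in the members' differences was not tested.

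Cells labelled 23-Tet1 stood below 23-NC early. At day 0, 28 of 36 members were lower and 1, Herc6, was higher (61.3% of all genes tested were called, 37.8% higher and 23.5% lower), and at day 2, 24 were lower and 7 higher (63.9% called, 38.7% higher and 25.2% lower). Bst2 was at 11.30, 17.30 and 13.12 FPKM in 23-Tet1 at day 0 against 242, 164 and 158 FPKM in 23-NC, a difference of -3.75 ± 0.16 (adjusted p = 5.1e-18, limma, n = 3). The libraries were far apart at that day. Usp18 was at 0.27, 0.43 and 0.25 FPKM against 5.77, 4.63 and 4.97 FPKM, and Ifit3 at 8.11, 7.82 and 9.13 FPKM against 45.63, 37.82 and 38.73 FPKM.

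At day 4 more members were higher than lower. In 23-Tet1, 25 of 36 members were higher than in 23-NC and 5 lower (56.9% of all genes tested were called, 35.0% higher and 21.9% lower). Ifit3 was at 14.20, 14.48 and 16.03 FPKM against 1.03, 1.03 and 1.80 FPKM (2.73 ± 0.12, adjusted p = 3.2e-18, limma, n = 3), and Gbp2 at 10.29, 10.95 and 11.85 FPKM against 0.79, 0.51 and 0.95 FPKM (2.70 ± 0.10). Neither gene's libraries overlapped. Bst2, Ifi27, Irf7, Oas1a and Usp18 were the 5 lower. At day 6, 19 members were lower and 8 higher (65.0% called, 29.0% lower). The 8 included the 3 of the PARP and DTX3L group, which adds ADP-ribose and ubiquitin marks, with Parp9 at 8.21, 8.16 and 9.49 FPKM against 3.38, 3.08 and 2.92 FPKM.

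**Figure D4:**
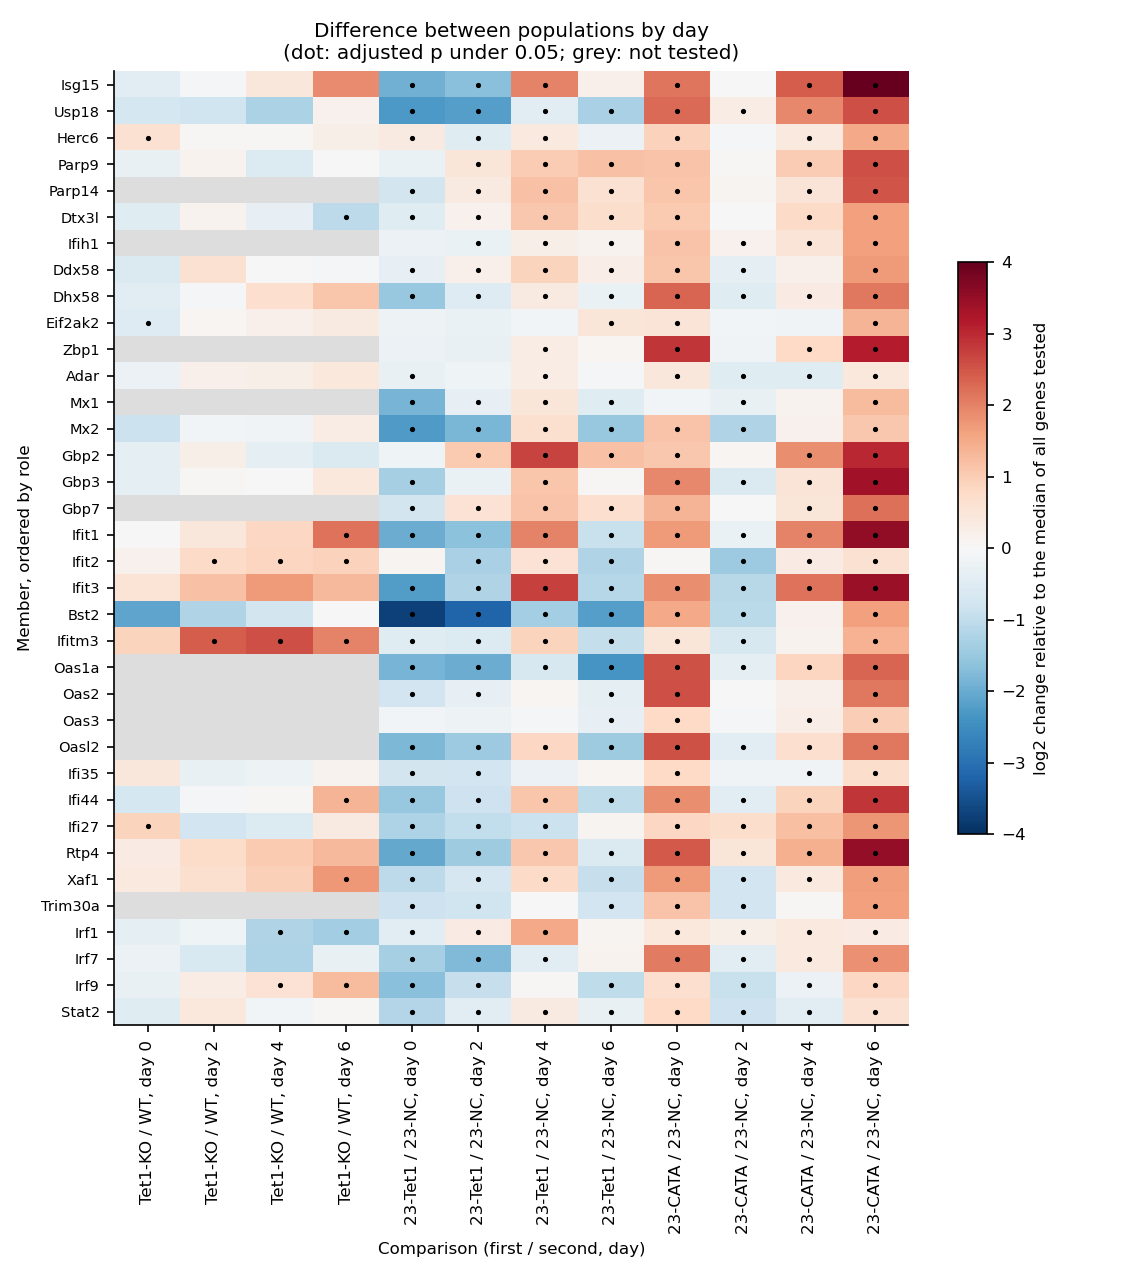
Difference between populations in log2(FPKM + 1), after the median change of all tested genes was subtracted, for each member (vertical axis, ordered by role) and comparison (horizontal axis). Colours saturate at 4 and -4, which Isg15 passes in 23-CATA against 23-NC at day 6 with 4.89, a dot marks a called gene, and grey cells were not tested; red fills the 23-CATA columns at days 0 and 6 and blue fills most of the 23-Tet1 columns at days 0 and 2.

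Compared directly, 23-CATA was higher than 23-Tet1 in 35 of 36 members at day 0 and in 36 of 36 at day 6 (64.2% and 65.7% of all genes tested were called, 32.9% and 31.9% higher). Bst2 was 41.2-fold higher in mean at day 0 and 14.2-fold at day 6. At day 2, 15 were higher and 11 lower (67.4% called, 30.3% higher and 37.1% lower). At day 4, 6 were higher and 19 lower (73.7% called, 27.6% higher and 46.1% lower). Of the 32 members that passed the filter without 23-CATA libraries, 31 were higher at day 0 and 32 at day 6. Of the same 32, 13 were higher and 11 lower at day 2, and 5 were higher and 19 lower at day 4. These comparisons share their samples with those against 23-NC, so their counts are not separate evidence.

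The change between days 0 and 6 differed between populations. It was larger in 23-Tet1 than in 23-NC for 27 of 36 members and smaller for 5 (61.4% of all genes tested were called). It was larger in 23-CATA than in 23-NC for 20 and smaller for 4 (63.5% called). Of all 12231 genes tested, 3363 were larger and 4403 smaller in 23-CATA. With both directions counted jointly, the share of members called in 23-CATA was near that of all genes, but by direction it was not. Among the 31 members that passed the filter through other libraries than those compared, 18 were larger and 3 smaller in 23-CATA. Isg15 differed by 2.11 ± 0.21 in the first and by 2.75 ± 0.21 in the second (adjusted p = 1.2e-09 and 7.3e-12, limma). Of these 2 comparisons 23-NC is shared.

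In Tet1-KO against WT few members were called. At day 0, 2 of 26 members tested were higher, Herc6 and Ifi27, and 1 lower, Eif2ak2 (16.8% of all genes tested were called, 5.83% higher). At day 2, 2 were higher and none lower (22.9% called, 16.2% higher). At day 4, 3 were higher and 1 lower (16.0% called, 9.79% higher and 6.22% lower), but none without Tet1-KO day 4 replicate 1 or 3 (4 at an unadjusted p under 0.05, limma) and 7 without replicate 2. No member was called at day 0 without WT replicate 2 or 3 or Tet1-KO replicate 1 or 2 (3 or 4 at an unadjusted p under 0.05). At day 6, 6 were higher and 2 lower (45.4% called, 15.7% higher and 29.7% lower). With higher and lower calls counted jointly, the members' shares were below those of all genes at each day in this fit. The share called lower was also below that of all genes at each day. The share called higher was above that of all genes at days 0, 4 and 6 and below it at day 2. With the 2 groups fitted alone, the order of the joint shares reversed at days 0, 2 and 4 and held at day 6. Without Tet1-KO day 6 replicate 2 it reversed at day 6. Ifitm3, which blocks entry of virus at membranes, was called higher at days 2, 4 and 6, with libraries that overlapped at day 6. At day 2 it was at 1246, 456 and 1364 FPKM in Tet1-KO against 176, 105 and 186 FPKM in WT (2.43 ± 0.62, adjusted p = 0.00638, limma, n = 3), with no overlap.

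Of the transcription factors, Irf9 and Irf1 differed in opposite directions at day 6. Irf9 was at 16.64, 15.63 and 23.06 FPKM in Tet1-KO against 10.04, 5.99 and 8.82 FPKM in WT (1.27 ± 0.20, adjusted p = 3.9e-04, limma, n = 3). Irf1 was at 9.53, 8.83 and 23.40 FPKM against 33.59, 49.65 and 38.98 FPKM (-1.40 ± 0.33, adjusted p = 8.0e-04). Neither overlapped. Without Tet1-KO day 6 replicate 2 the differences were 1.18 ± 0.21 and -1.36 ± 0.35. Ifit1, Xaf1, Ifitm3 and Ifi44 were called higher at day 6 although their libraries overlapped, Ifit1 at 26.11, 5.82 and 66.03 FPKM against 5.79, 2.76 and 6.82 FPKM. Without replicate 2 the difference of Ifit1 was 2.87 ± 0.34, that of Xaf1 2.38 ± 0.34, that of Ifitm3 2.68 ± 0.53 and that of Ifi44 1.96 ± 0.35. Eif2ak2, the kinase PKR, was at 7.20, 6.27 and 9.13 FPKM at day 0 against 9.97, 12.75 and 12.93 FPKM.

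The count at day 0 depended on which libraries set the spread. Bst2 was at 14.55, 13.64 and 9.47 FPKM in Tet1-KO and at 63.42, 60.73 and 58.17 FPKM in WT, without overlap, but its SE was 1.09 and it was not called (-2.12, adjusted p = 0.173, limma). With the 2 groups fitted alone, 21 members were called at day 0, 6 higher and 15 lower, where 47.4% of all genes tested were called. At day 6 the same change took the count to 0, with 6 members at an unadjusted p under 0.05 and 8.75% of all genes called. Leaving out Tet1-KO day 6 replicate 2 took the count of day 6 to 14, where 43.6% of all genes were called. These members were higher except Dtx3l and Irf1, while 2390 of all 11889 genes tested were higher and 2791 lower. The count of day 6 against day 0 in Tet1-KO became 19, where 41.6% of all genes were called. Those members were higher except Ifit2, while 1657 of all genes tested were higher and 3285 lower.

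The Tet1-KO day 6 libraries lay far apart, and replicate 3 was the highest of the 3 in 36 of 40 members. Isg15 was at 21.85, 0.00 and 289 FPKM in replicates 1, 2 and 3, Bst2 at 31.01, 2.25 and 779 FPKM, and Irf7 at 9.21, 0.88 and 26.31 FPKM. Replicate 3 lay above all 3 WT libraries in 34 of 40 members, replicate 1 in 18 and replicate 2 in 3. These counts, and that of the highest library, were not made over all genes. They describe the libraries and are not a result about the members. Replicate 2 was the library with few genes above 0 and listed 14 of the 40 members at 0. The count of 6 members in Tet1-KO at day 6 against day 0 (4 higher, 2 lower, 45.1% of all genes called, 9.55% higher and 35.6% lower) and the day 6 minus day 0 difference from WT (Irf9, Eif2ak2 and Ifi44 higher, 17.8% of all genes called, 7.16% higher) rest on these libraries. Without replicate 2 that difference of changes was called in 14 members, each higher (24.9% of all genes called, 1589 higher and 1377 lower). Irf9 was at 1.49 ± 0.29, Eif2ak2 at 0.84 ± 0.25 and Ifi44 at 2.65 ± 0.47.

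**Figure D5:**
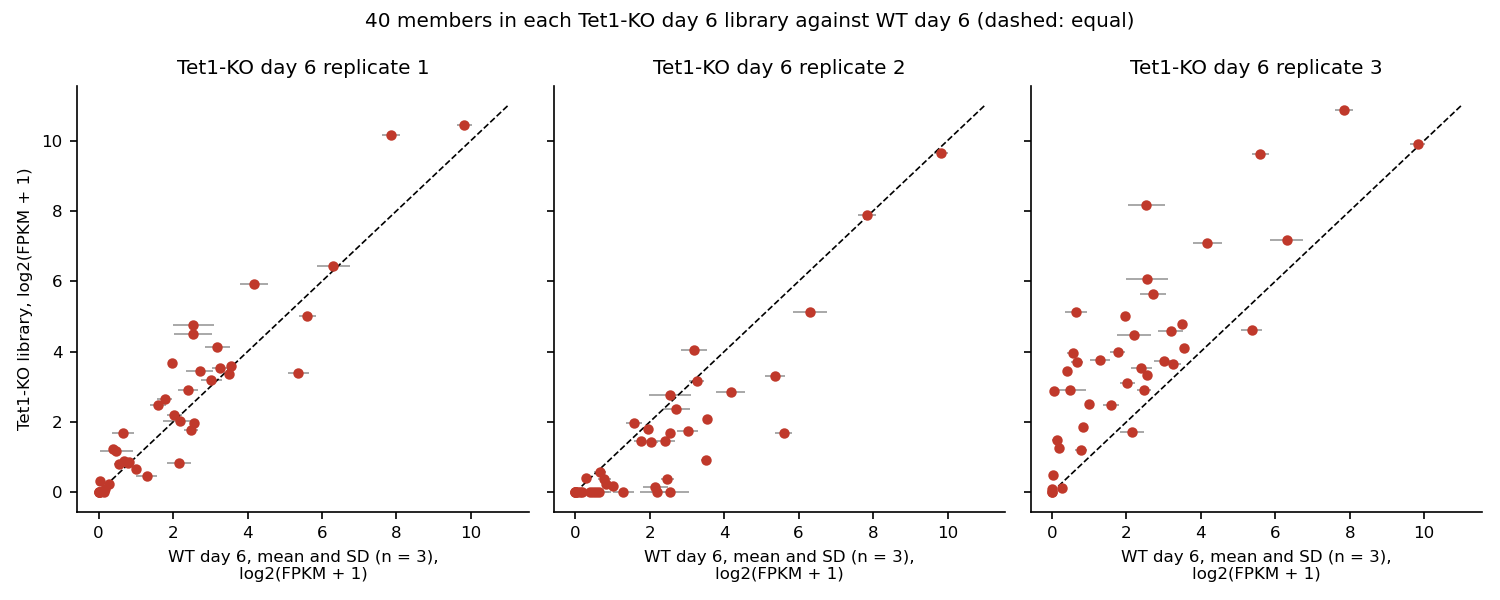
log2(FPKM + 1) of the 40 members in each Tet1-KO day 6 library (vertical axis) against the WT day 6 mean (horizontal axis; bars give the SD of 3 libraries). Points on the dashed line are equal. Replicate 3 lies above all WT libraries in 34 members and replicate 2 below them in 25, and these counts were not made over all genes.

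Receptor and kinase genes of the pathway were counted apart from the members. Of the 26 genes for ligands, receptors and signalling, 16 were tested. By day 2 in WT, 2 had risen and 12 had fallen, where 18.9% of all genes rose and 42.7% fell. In 23-CATA against 23-NC at day 0, 9 were higher and 1 lower, where 31.6% of all genes were higher and 11.7% lower.

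Receptor chains and ligands were measured in the same libraries. Ifnar2 fell in WT from 77.49, 72.29 and 71.10 FPKM at day 0 to 26.58, 23.80 and 28.08 FPKM at day 2 (-1.07 ± 0.25, adjusted p = 5.8e-05, limma). Ifnar1 was lower in 23-CATA than in 23-NC at day 0, with a difference of -0.36 ± 0.06. Ifnb1, the gene of interferon beta, was listed at 0 in every library except 2 of 23-CATA, at 0.28 FPKM (day 2) and 0.14 FPKM (day 4). Ifnl2 and Ifnl3 were listed at 0 throughout.

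Of 72 further interferon-stimulated genes, 64 were tested in the second table. In 23-CATA against 23-NC at day 0, 55 were higher and 1 lower (31.6% of all genes tested higher, 11.7% lower), and at day 6, 49 were higher and 5 lower (38.0% higher, 36.4% lower). In 23-CATA by day 2, 58 had fallen and 4 had risen (45.0% of all genes fell, 27.0% rose). B2m, the light chain of MHC class I, was at 2848, 2640 and 2790 FPKM in 23-CATA at day 0 and at 1098, 1136 and 1286 FPKM at day 2. Of the 53 tested among WT and Tet1-KO libraries, 35 fell in WT by day 2 and 1 rose (42.7% of all genes fell, 18.9% rose).

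Members were not tested where too few libraries reached 1 FPKM. Among WT and Tet1-KO libraries Rsad2 and Cmpk2 were listed at 0 in all 24 libraries. Ifih1, Oas1a, Oas2, Oas3, Oasl1, Oasl2, Mx1, Gbp7, Parp14, Trim25, Trim30a and Zbp1 also stayed under the filter there, which makes 14 members. Some of these were well above 1 FPKM in Tet1-KO day 6 replicate 3, with Oas1a at 33.69, Oasl2 at 14.61, Trim30a at 12.13, Zbp1 at 6.49, Oas2 at 6.38 and Parp14 at 4.65 FPKM. In the second table Oasl1, Rsad2, Trim25 and Cmpk2 did not pass it. Oasl1 was at 0.97, 0.83 and 1.13 FPKM in 23-CATA at day 6, just outside the filter, and at 0 in 23-NC at that day. Rsad2, an antiviral enzyme whose promoter window held the ISRE core, was at 0.14, 0.04 and 0.07 FPKM in 23-CATA at day 0 and 0.20, 0.28 and 0.08 FPKM at day 6, with no more than 0.02 FPKM in 23-NC at any day.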

How the data were processed

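RNA-seq values were deposited by the authors as 2 gene tables of FPKM, kept apart here because they may have been normalised separately. The submitters' processing notes name STAR 2.4.1a, RSEM and mm10, and the kit is TruSeq per the labels' protocols. The genes and lists were chosen with earlier results of these data known. Values were transformed as log2(FPKM + 1) from the deposited FPKM and tested with limma 3.58.1 (R 4.3.3; trend, all groups of a table in 1 fit) in 11911 genes of the first table and 12231 of the second, at least 1 FPKM in 3 libraries, with Benjamini-Hochberg adjustment over all genes tested; the code was tested on simulated data. No per-sample column was left unused (0). Sample labels set the groups, and the titles were used for 23-Tet1, whose genotype tags differ in 11 of its 12 samples.

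The number of fragments per library is not given by the files. An estimate from the step of the lowest FPKM values gave 7.5 to 29.0 M, with a median of 15.6 M. The estimate assumes a fragment length, and other values fitted many libraries nearly as well (14.1 against 28.2 M for 23-NC day 4 replicate 1, 14.3 against 29.0 M for 23-CATA day 6 replicate 1), so it is known only to about a factor of 2. A lower score cutoff, set after seeing that 1 library stood apart, moved it to its neighbours and was dropped for this reason. No result rests on the estimate. No interval or limit was computed from it.

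Named members were 10 fixed ones (Isg15, Ifit1, Ifit3, Irf7, Stat2, Irf9, Ifih1, Oasl2, Bst2, Rsad2) and up to 3 each way per comparison with the largest called change, no overlap and at least 5 FPKM in the higher group; others were named after their values were seen. One gene that the rule also named is not reported here. Same-numbered samples were not treated as paired: over 26 comparisons the correlation of their deviations ran from -0.411 to 0.383. Alternatives were a fit of only the groups compared, a replicate block, a pseudocount of 0.1, scaling by quantiles or by median ratios, no filter on low values, and fits that left out each library in turn. Fits without Tet1-KO day 6 replicate 2, or without replicates 2 and 3, were added after seeing the data. Promoter windows came from RefSeq, and 50-base words from GENCODE transcripts. Python 3.11.15, numpy 2.4.6, pandas 2.3.3 and matplotlib 3.10.9 were used.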

Additional observations from a re-analysis of the deposited data

Results flagged for a closer look

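The change of Tet1-KO between days 0 and 6 was tested against that of WT, and 3 of 26 members differed by this test of the difference itself, where 17.8% of all genes tested did. The count was 1 when any 1 of 6 libraries was left out. They included Irf9 at 1.57 and Eif2ak2 at 0.87 on the log2 scale, and both rest on the 3 Tet1-KO day 6 libraries that lay far apart. Without replicate 2 they were 1.49 and 0.84.

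The same test of 23-Tet1 against 23-NC called 32 of 36 members, 27 larger and 5 smaller. Of all genes tested 61.4% were called, 29.1% larger and 32.3% smaller. Among these, Isg15 differed by 2.11, Bst2 by 1.56 and Irf7 by 1.46, while Ifit2 differed by -1.31 and Ifitm3 by -0.45.

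In 23-CATA against 23-NC, 24 of 36 members differed in their change over these days, 20 larger and 4 smaller. With both directions counted jointly, this share was near the 63.5% of all genes tested. By direction it was not, as 3363 of all 12231 genes tested were larger and 4403 smaller. Isg15 differed by 2.75, Gbp2 by 1.93 and Ifit1 by 1.84. Oas2 at -0.46, Oasl2 at -0.42 and Irf7 at -0.26 went the other way.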

How the results depend on the processing

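No count of members called among 23-NC, 23-Tet1 and 23-CATA moved by more than 1.5 times under any alternative run, and with a replicate block the same held for all 29 comparisons (9 members for Tet1-KO against WT at day 6). Counts among WT and Tet1-KO moved, and the cause was not tested. With only the groups compared fitted, Tet1-KO against WT called 21 members at day 0, 10 at day 2 and 0 at day 6 (6 at an unadjusted p under 0.05), WT day 6 against day 0 called 14, Tet1-KO day 6 against day 0 called 0 (2 at an unadjusted p under 0.05) and the difference of these changes 1. In these fits of Tet1-KO against WT, 47.4%, 31.7%, 5.64% and 8.75% of all genes tested were called at days 0, 2, 4 and 6. For Tet1-KO day 6 against day 0 it was 3.62%, and for the difference of changes 11.1%. A pseudocount of 0.1 gave 5 at day 2, 8 at day 4 and 1 for the difference of changes, which was also 1 with no filter. Quantile normalisation gave 7 at day 4, 15 for Tet1-KO day 6 against day 0 and 5 for the difference of changes. Of all 11911 genes tested it called 1116 higher and 1238 lower, 1975 and 2189, and 1440 and 1485 in these. Median-ratio scaling gave 13 for Tet1-KO day 6 against day 0, where 2057 of all genes were higher and 2046 lower. A count given without the calls among all genes describes the fit and is not a result about the members. Under quantile normalisation Ifih1 (-0.02) and Oasl2 (-0.17) reversed in the change of 23-Tet1 against that of 23-NC.

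A fit without Tet1-KO day 6 replicate 2 called 6, 8 and 11 members at days 0, 2 and 4. A fit without replicates 2 and 3 left 1 library in that group, so its counts of calls are not given. The counts of this paragraph stand without the share of all genes called, so they describe the fits and not the members. Leaving out single libraries gave 0 to 2 members at day 0 (0 without WT replicate 2 or 3 or Tet1-KO replicate 1 or 2, with 3 or 4 at an unadjusted p under 0.05), 1 to 3 at day 2 (1 without any 1 library but Tet1-KO replicate 2), 0 to 7 at day 4 (2 without WT replicate 1, 1 without WT replicate 2 or 3, 0 without Tet1-KO replicate 1 or 3, with 4 at an unadjusted p under 0.05, and 7 without replicate 2) and 5 to 14 at day 6 (5 without WT replicate 2 or 3, 14 without Tet1-KO replicate 2). It gave 5 to 8 for WT day 6 against day 0 (5 without WT day 6 replicate 2), 6 to 9 for Tet1-KO day 2 (6 without its replicate 2), 4 to 19 for Tet1-KO day 6 (19 without its replicate 2) and 1 to 14 for the difference of changes (14 without Tet1-KO day 6 replicate 2, 5 without its replicate 3, and 1 without WT replicate 2 or 3 or Tet1-KO replicate 1 or 2 of day 0 or WT replicate 2 or 3 of day 6).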
